A study of Mus musculus with 44 samples.

Results

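Toll-like receptors and the proteins that work with them were followed as 10 genes: the receptors Tlr1, Tlr2, Tlr3, Tlr4, Tlr7, Tlr9 and Tlr13, the coreceptor Cd14, the accessory protein Ly86 and the signalling adaptor Myd88. They were chosen by symbol, not by any measured value, and each symbol was matched to 1 Ensembl gene of GENCODE mouse release 21. All 10 were listed in each of the 44 libraries, among 50714 genes shared by the deposited count tables. The tissue was dorsal cortex with hippocampus, taken on postnatal day 28 or 29. All mice are labelled CX3CR1-CreERT2 (+/-) x RPL10a-GFP flox (+/-), whereas the design text of the series gives the RPL10a-GFP allele as fl/fl. Tamoxifen, which activates the CreERT2 recombinase, was given 3 times (100 mg/kg, postnatal days 15, 17 and 19), while the labels give vehicle for the controls and the design text calls them untreated. Cre expressed from Cx3cr1 switches on a GFP-tagged ribosomal protein in microglia, and the same promoter is known to be active in other macrophages and in monocytes. Translating ribosome affinity purification (TRAP) then pulls tagged ribosomes and their mRNA out of a homogenate with an antibody to GFP. Each replicate letter has 4 libraries: Input, the RNA of the whole homogenate; MG_TRAP, the pull-down from whole homogenate; SN_input, the RNA of the synaptosome fraction, which is made of pinched-off synapses and the cell processes attached to them; and PeMP_TRAP, the pull-down from synaptosomes (named SN_TRAP for letters G to K). Control mice have letters A to C (n = 3) and tamoxifen mice letters D to K (n = 8). Letters A to F form a first set and G to K a second, told apart by the style of their titles, and controls occur in the first set only. Whether a letter stands for 1 mouse, a pool of mice or a separate preparation is not given in the sources used here, nor whether fractions of 1 letter come from the same homogenate, so p-values measure the spread between these libraries, which may be technical in part.

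Toll-like receptors are germline-encoded sensors of microbial molecules and of some molecules from damaged cells. TLR1, TLR2 and TLR4 act at the cell surface, where they bind bacterial lipopeptides and lipopolysaccharide, whereas TLR3, TLR7, TLR9 and TLR13 act in endosomes, where they bind nucleic acids. CD14 hands lipopolysaccharide and other ligands to the receptors, LY86 (also called MD-1) binds the receptor-like protein CD180, and MyD88 couples all of these receptors except TLR3 to kinases that activate NF-kB. In brain, microglia are the cells best known for these receptors, although astrocytes and endothelium can express some of them.

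The stretch of DNA just before the start of transcription is shown for 3 members that the results turn on: Ly86, which was called higher in both pull-downs, Tlr13, which was called higher in the pull-down from homogenate but in that from synaptosomes only through 1 library, and Tlr1, which gave no read in the synaptosome pull-down of tamoxifen mice. The sequences are the 250 bases before the RefSeq start on assembly GRCm38.p6, and capitals mark the core of the binding motif of PU.1, a transcription factor that macrophages and microglia need. The windows lie at chr13:37345095-37345344 on the plus strand (Ly86), chrX:106143025-106143274 on the plus strand (Tlr13) and chr5:64933559-64933808 on the minus strand (Tlr1).
Ly86: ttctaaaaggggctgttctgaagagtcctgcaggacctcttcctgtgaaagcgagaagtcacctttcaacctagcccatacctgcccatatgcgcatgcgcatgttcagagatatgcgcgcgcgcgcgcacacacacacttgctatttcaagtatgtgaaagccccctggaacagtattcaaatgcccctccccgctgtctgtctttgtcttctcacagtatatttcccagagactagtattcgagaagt
Tlr13: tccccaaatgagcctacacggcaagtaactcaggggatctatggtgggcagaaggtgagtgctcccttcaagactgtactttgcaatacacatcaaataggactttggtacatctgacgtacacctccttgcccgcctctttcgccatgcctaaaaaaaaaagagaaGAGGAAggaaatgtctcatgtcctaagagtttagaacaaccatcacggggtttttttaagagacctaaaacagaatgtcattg
Tlr1: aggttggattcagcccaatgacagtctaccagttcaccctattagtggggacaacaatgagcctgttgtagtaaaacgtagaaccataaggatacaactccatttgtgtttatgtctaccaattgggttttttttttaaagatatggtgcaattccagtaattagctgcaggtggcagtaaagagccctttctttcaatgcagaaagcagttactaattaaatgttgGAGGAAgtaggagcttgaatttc
Searched on both strands, the letters GAGGAA began 83 bases before the start of Tlr13 and 23 bases before that of Tlr1, and were not in the Ly86 window. RefSeq gives Tlr1 a second start, whose window (chr5:64932700-64932949) did not hold them. RefSeq windows were matched for 7 of the 10 members and not for Tlr4, Tlr7 and Cd14. Of their 8 windows, 3 held GAGGAA (1 each of Tlr1, Tlr9 and Tlr13), as did 23.3% of 32851 promoter windows of the same length. The AP-1 motif TGANTCA was found in Tlr9 alone of the 7 (6.75% of all windows), the interferon response motif in Myd88 alone (2.98%) and an NF-kB motif in Tlr3 alone (1.41%). A match of letters is a description and not a bound site.

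Some properties of the libraries touch every value below. Assigned reads ranged from 746616 to 35584637 per library, so that 3 counts, the limit that a count of 0 still allows, corresponded to 0.0847 to 4.05 CPM, the reads of a gene scaled to the assigned reads of its library. These floors cover counting error only, since amplified reads were counted, not molecules. The PeMP_TRAP libraries of the second set stood apart: they held 20442643 to 35584637 reads but only 5372 to 7369 detected genes (against 12488 to 16515 in MG_TRAP of the same letters). Of the 14736 genes tested, 30.5% were at 0 in all 5 of these libraries, against 1.67% in MG_TRAP of the same letters, so counts of 0 were common there. The 7 microglial markers (Cx3cr1, Tmem119, P2ry12, Csf1r, C1qa, Siglech and Sall1) had in tamoxifen mice a summed level of 83.6 to 176 CPM in Input against 7057 to 19032 in MG_TRAP, and of 308 to 1031 in SN_input against 4732 to 16906 in PeMP_TRAP. These 7 rose in both pull-downs over their inputs. Markers of border macrophages summed over 5 genes to 55.1 to 216 CPM in MG_TRAP, above the 1.91 to 19.5 of Input (2 of 5 called higher), and to 0 to 207 in PeMP_TRAP against 17.1 to 31.1 in SN_input (none of 5 higher, 2 lower). In PeMP_TRAP Cd163 and F13a1 were at 0 in all 8 libraries. The 7 monocyte and neutrophil markers summed to 0.08 to 47.5 CPM in MG_TRAP and 0 to 38.3 in PeMP_TRAP. B and plasma cell markers, genes of cells that are also known to express LY86, CD180 and some of these receptors, summed to 582 to 2333 CPM over 6 genes in MG_TRAP and 119 to 3410 in PeMP_TRAP, against 14.6 to 97.2 in Input and 6.14 to 313 in SN_input. Of their 4 tested genes all 4 were called higher in both pull-downs, Cd79a was at 0 in all 8 PeMP_TRAP libraries, and their part in the members' results was not tested. In bulk RNA, fewer cells of a type and less RNA per cell cannot be told apart.

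Ly86 was the most abundant member in the microglial pull-down, and it was higher there than in whole homogenate in all 8 letters. The gene lies on chromosome 13 (37345208 to 37419036, plus strand, 5 exon blocks, GRCm38). In tamoxifen mice its CPM ran from 8.24 through a median of 10.8 to 18.8 in Input and from 634 through 1020 to 1521 in MG_TRAP. The ranges did not overlap. By edgeR's quasi-likelihood test the log2 fold change was 6.81 (SE 0.48, adjusted p = 2.48e-14, n = 8 against 8). It was 7.45 in the first set alone and 6.44 in the second, both past the adjusted threshold of 0.05.

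Cd14, a gene on chromosome 18, followed the same pattern at a lower level. Its CPM ran from 0.436 through 2.17 to 3.29 in Input and from 95.1 through 178 to 288 in MG_TRAP, again without overlap. The log2 fold change was 6.81 (SE 0.94, adjusted p = 1.2e-06, edgeR), and it was 6.92 in the first set and 6.72 in the second.

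Among the endosomal receptors, Tlr7 and Tlr13 were higher in MG_TRAP. Tlr7, a sensor of single-stranded RNA on chromosome X (167304929 to 167330558, minus strand), ran from 0 through 0.613 to 1.41 CPM in Input and from 4.74 through 30.0 to 176 CPM in MG_TRAP. Its highest pull-down library was E, followed by F at 84.1 CPM, and the lowest was D. The log2 fold change was 6.14 (SE 1.39, adjusted p = 0.00294, edgeR), with 9.59 in the first set (adjusted p = 0.00483) and 5.09 in the second (adjusted p = 0.0649). Tlr13, which in mice senses bacterial ribosomal RNA, lies on the same chromosome (106143204 to 106160493, plus strand). It ran from 0 through 0.392 to 1.28 CPM in Input and from 11.2 through 20.01 to 38.7 CPM in MG_TRAP, the narrowest relative spread of any receptor there. Its log2 fold change was 6.77 (SE 1.62, adjusted p = 0.00472, edgeR). The 2 sets alone gave 7.73 (adjusted p = 0.154) and 5.38 (adjusted p = 0.0733), so the call needed both sets.

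The other endosomal receptors gave smaller differences. Tlr3, the sensor of double-stranded RNA on chromosome 8 (45395665 to 45411080, minus strand), was already present in Input, at 0 through 4.16 to 19.1 CPM, and ran from 3.24 through 17.4 to 35.2 CPM in MG_TRAP. The groups overlapped and the log2 difference of 2.18 (SE 1.34) did not pass (adjusted p = 0.497, edgeR). Tlr9, the sensor of unmethylated CpG DNA on chromosome 9 (106222598 to 106226883, plus strand), reached no more than 4.35 CPM in any MG_TRAP library and was at 0 in 2 of 8 there and in 5 of 8 Input libraries. Its log2 difference was 3.78 (SE 1.52, adjusted p = 0.164, edgeR).

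The 3 receptors of the cell surface ranged widely between letters, and none of them passed. Tlr2, on chromosome 3 (83836272 to 83841767, minus strand), was at 0 in MG_TRAP letter J and between 1.37 and 22.6 CPM in the other letters, against at most 1.01 CPM in Input. Its log2 difference of 5.32 (SE 1.69) lay at the threshold (adjusted p = 0.05 after rounding, not passed, edgeR), and it passed without letter E (5.59, adjusted p = 0.0382) and by DESeq2 (4.85, adjusted p = 0.0103). Tlr1, on chromosome 5 (64924679 to 64933563, minus strand), which pairs with TLR2, was at 53.9 CPM in letter D, 34.7 in F and 11.3 in I, between 2.03 and 3.54 CPM in E, G and H, and at 0 in J and K. Tlr4, the lipopolysaccharide receptor on chromosome 4 (66827584 to 66930284, plus strand), was at 41.7 CPM in letter D, 0 in J and at most 8.86 in the other letters. Input letter F held 34.5 CPM of Tlr4, more than 7 of the 8 MG_TRAP libraries. Neither passed: the log2 difference was 4.80 for Tlr1 (SE 1.79, adjusted p = 0.123, edgeR) and 2.28 for Tlr4 (SE 1.47, adjusted p = 0.534, edgeR). Without letter F the value of Tlr4 was 4.46 (adjusted p = 0.127). Of the 50-base words in Tlr1 transcripts, 15.4% also occur in other genes, Tlr6 and many repeat-bearing transcripts among them, so its counts are less certain than those of the other members.

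Myd88, the adaptor on chromosome 9 (119335934 to 119341411, minus strand), was higher in MG_TRAP than in Input in all 8 letters, at 17.7 through 68.3 to 104 CPM against 0.610 through 5.63 to 18.7. The ranges met between Input letter E (18.7 CPM) and MG_TRAP letter F (17.7 CPM), and the log2 difference of 3.40 (SE 1.19) did not pass (adjusted p = 0.0842, edgeR). DESeq2 called it (2.93, adjusted p = 0.0216). Myd88 and Tlr3 each overlap a gene on the opposite strand, Acaa1a over 11.3% of the Myd88 exons and Gm45542 over 7.32% of the Tlr3 exons. Whether the counting used strand is not given in the sources used here, so reads of these stretches cannot be assigned with certainty.

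In all, 4 of the 10 members were called higher in MG_TRAP than in Input (Ly86, Cd14, Tlr7 and Tlr13) and none lower by edgeR, where 4.75% of the 14736 genes tested were called higher and 1.51% lower. The same 4 were the members whose groups did not overlap, against 4.66% of all genes with groups separated in this direction. At an unadjusted p under 0.05 the count was 8, and DESeq2 called 6. The median log2 difference over the members was 5.06, beside -0.11 over all genes tested.

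**Figure D1:**
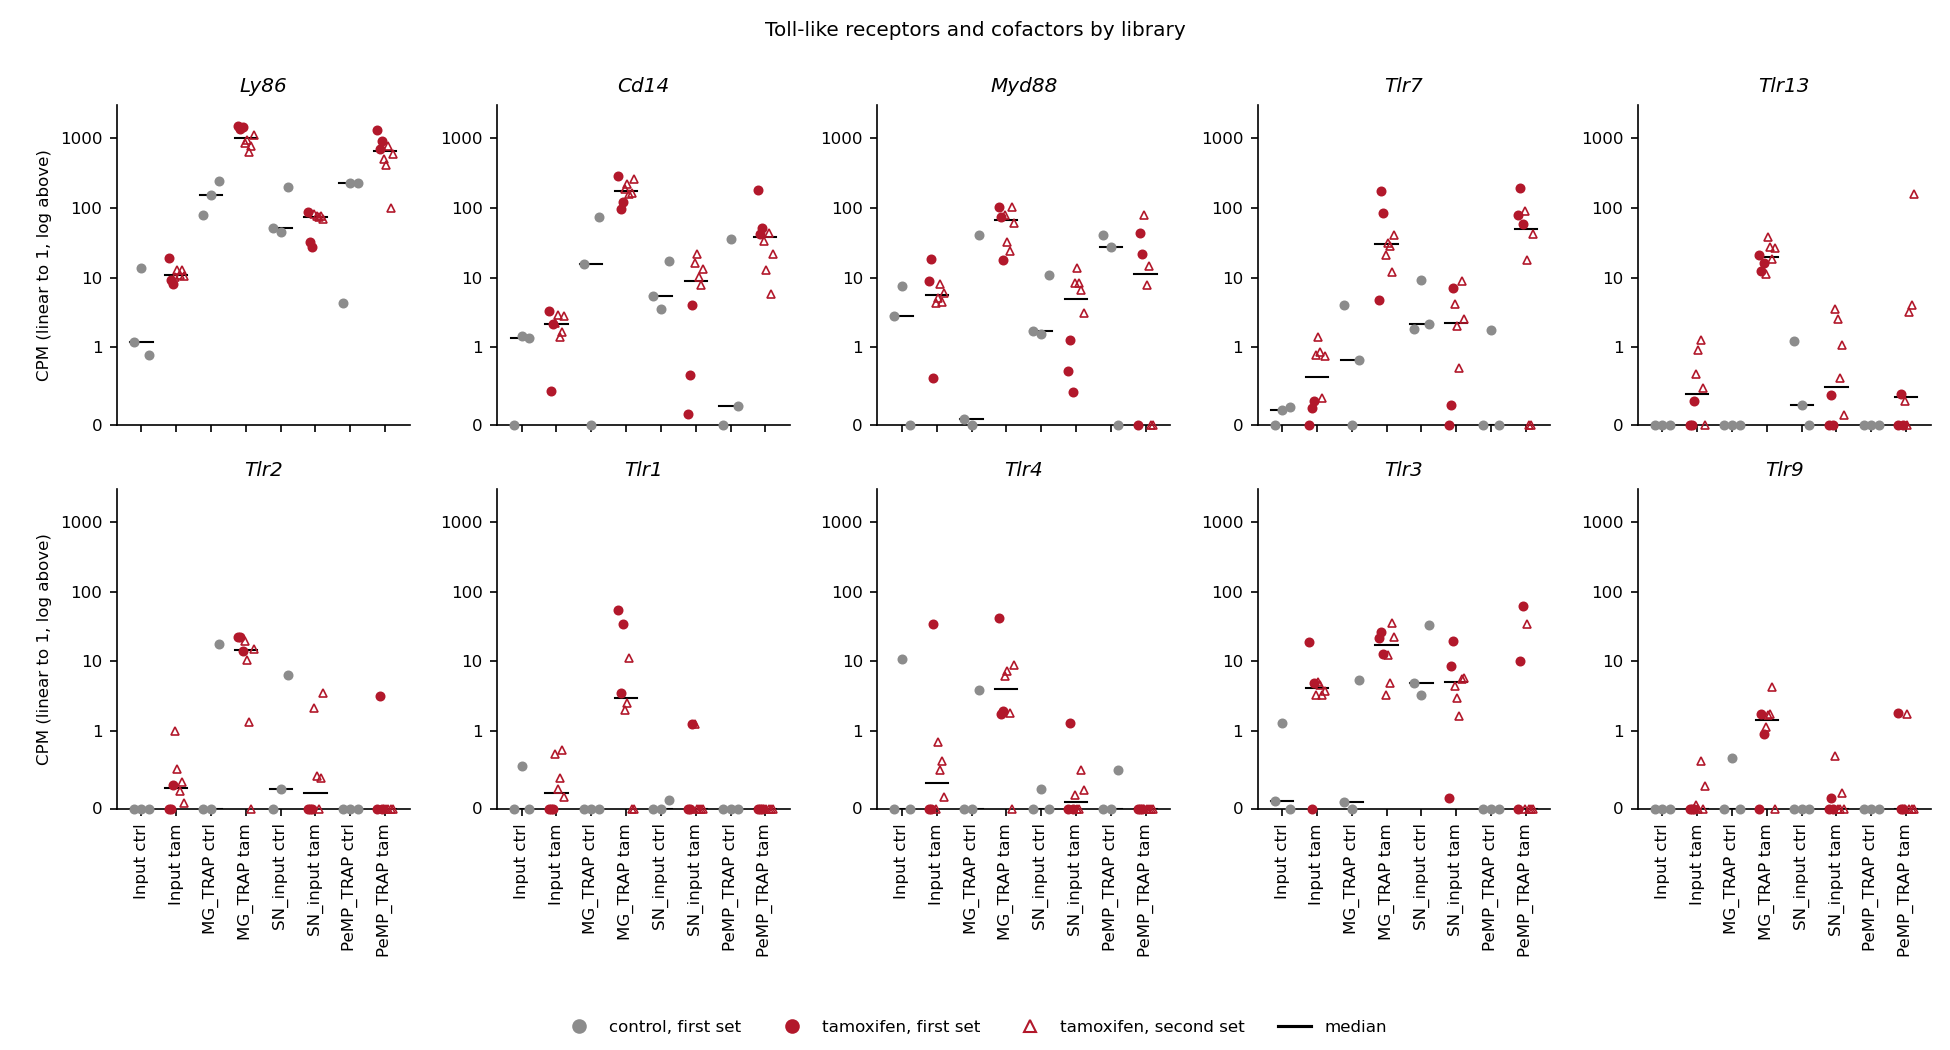
CPM of each member in each library, by fraction and treatment (vertical axis linear to 1 and logarithmic above; circles are first-set libraries, triangles second-set libraries, and the bar is the median of the group). Ly86 sits between 634 and 1521 in MG_TRAP of tamoxifen mice and between 8.24 and 18.8 in Input, whereas Tlr1 and Tlr4 lie at 0 in every tamoxifen PeMP_TRAP library.

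Levels between members were compared as CPM per kilobase of exon. In MG_TRAP of tamoxifen mice the medians ordered as Ly86 (281), Cd14 (103), Myd88 (26.5), Tlr7 (7.34), Tlr2 (4.84), Tlr13 (4.65), Tlr3 (3.34), Tlr1 (0.904), Tlr4 (0.723) and Tlr9 (0.409). The ranges of Ly86 and Cd14 did not overlap, nor did those of Cd14 and Myd88. From Myd88 down, each member overlapped the next in range, so the order of neighbours does not stand beyond the spread of the libraries. Members further apart can be told apart, as Tlr13 (2.61 to 8.99) lay above Tlr9 (0 to 1.25). In PeMP_TRAP the order began with Ly86 (181), Cd14 (21.8), Tlr7 (12.4) and Myd88 (4.34), followed by Tlr13 (0.083), and the other 5 members had a median of 0. There the ranges of all neighbours overlapped, although Ly86 exceeded Cd14 in 8 of 8 libraries. In SN_input the leading 4 medians were Ly86 (20.6), Cd14 (5.18), Myd88 (1.90) and Tlr3 (0.967).

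**Figure D2:**
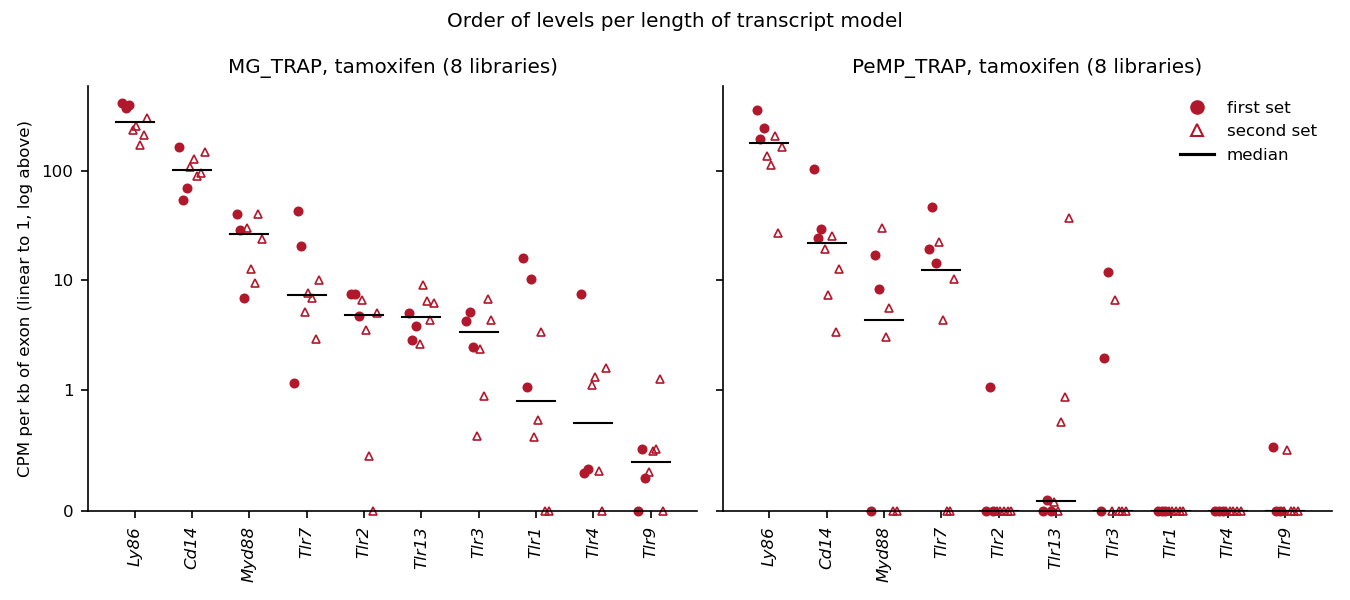
CPM per kilobase of exon for the 10 members in MG_TRAP (left) and PeMP_TRAP (right) of tamoxifen mice, ordered by the MG_TRAP median (vertical axis linear to 1 and logarithmic above; circles first set, triangles second set, bars medians). Ly86 and Cd14 lead in both pull-downs, and Tlr13 has a single library at 37.1 in PeMP_TRAP while its median there is 0.083.

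The synaptosome fraction itself held more Ly86 and Cd14 than whole homogenate. In tamoxifen mice Ly86 ran from 27.5 through 74.7 to 86.6 CPM in SN_input, all above the highest Input library (18.8). The log2 fold change was 3.51 (SE 0.41, adjusted p = 9.56e-08, edgeR), with 3.38 in the first set (adjusted p = 0.172) and 3.46 in the second (adjusted p = 1.71e-05). RLE scaling gave 2.75 and total counts 2.50, both still called. Cd14 ran from 0.138 through 8.97 to 21.6 CPM in SN_input, where the 3 first-set libraries (0.138, 0.647 and 4.02) lay below the 5 of the second set (7.83 to 21.6). Its log2 fold change was 3.16 (SE 0.80, adjusted p = 0.0192, edgeR). The call was lost with the first set alone (1.54), with RLE scaling (2.36, adjusted p = 0.131), with total counts (2.11, adjusted p = 0.184), with no filter on low counts (2.997, adjusted p = 0.0684) and without letter G, H, I or K (2.97 to 3.16), and it held in the second set alone (3.43, adjusted p = 0.00161). The count was therefore 2 of 10 higher and none lower, beside 2.25% of all genes called higher and 0.339% lower, and Ly86 was the only member whose groups did not overlap (0.366% of all genes in this direction). The microglial markers moved with them: 6 of 7 were called higher in SN_input. So did others: the 5 oligodendrocyte markers summed to 3222 to 7801 CPM in Input and 3153 to 58306 in SN_input (3 of 5 called higher), the 5 astrocyte markers to 324 to 883 and 560 to 2056 (1 of 5), and the 5 border macrophage markers to 1.91 to 19.5 and 17.1 to 31.1 (1 of 5). The part of these in the result was not tested.

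In the pull-down from synaptosomes, Ly86, Cd14, Tlr7 and Tlr13 were called higher than in SN_input and Tlr1 and Tlr4 lower. These are 4 and 2 of 10 members, beside 6.24% of all genes called higher and 25.3% lower by edgeR. Ly86 ran from 98.2 through 658 to 1322 CPM in PeMP_TRAP. Every library lay above the highest SN_input library (86.6 CPM), which held for 0.584% of all genes. Its log2 fold change was 3.42 (SE 0.41, adjusted p = 2.32e-07, edgeR), with 4.49 in the first set (adjusted p = 0.00922) and 2.63 in the second (adjusted p = 3.14e-05). Letter J was the lowest library at 98.2 CPM, and the others lay at 411 or more.

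Tlr7 reached its highest level of any library in the synaptosome pull-down, but gave no read in 2 of its 8 libraries. Its CPM was 78.3 in letter D, 193 in E, 59.4 in F, 91.3 in G, 17.8 in H and 41.7 in K, and 0 in I and J, which held 34894579 and 20442643 assigned reads. SN_input ran from 0 through 2.27 to 8.82 CPM. The log2 fold change was 3.94 (SE 1.25, adjusted p = 0.0141, edgeR). Neither set alone passed (5.07, adjusted p = 0.0795, and 3.01, adjusted p = 0.104), and the call was lost without letter E (3.28, adjusted p = 0.0582).

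Cd14 differed between the sets in this comparison. Its PeMP_TRAP libraries were at 180, 42.2 and 51.3 CPM in letters D to F and at 33.3, 12.8, 44.1, 5.80 and 22.2 in letters G to K, while SN_input lay between 0.138 and 4.02 CPM in the first set and between 7.83 and 21.6 CPM in the second. The pooled log2 fold change was 2.76 (SE 0.86, adjusted p = 0.012, edgeR), with 5.71 in the first set (adjusted p = 0.029) and 0.76 in the second (adjusted p = 0.326). The difference between the sets was itself called (second minus first -4.89, SE 1.43, adjusted p = 0.0165, edgeR), where 14.9% of 17961 genes were called lower and 0.189% higher. Without letter D the pooled value was 1.65 (adjusted p = 0.0509) and without letter E 2.20 (adjusted p = 0.0509). The difference between the sets was lost without letter D (-2.66, adjusted p = 0.222), without letter E (-4.69, adjusted p = 0.0716), with RLE scaling (-3.90, adjusted p = 0.0668) and with no filter on low counts (-4.75, adjusted p = 0.0978). Tlr2 was the other member called between the sets (-15.59, SE 3.73, adjusted p = 0.00426, edgeR), a fitted value that rests on a group at 0 reads and is no size, and that call was lost without letter E (-7.72, adjusted p = 1).

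The call on Tlr13 rested on 1 library. PeMP_TRAP letter K held 4066 reads of Tlr13 (159 CPM), the next library 4.03 CPM, and 3 libraries held none. The log2 fold change over SN_input was 3.73 (SE 1.42, adjusted p = 0.0415, edgeR) with letter K and -0.075 (adjusted p = 0.974) without it. It was -0.43 in the first set alone. Without F, I or J the value stayed at 3.71 to 3.75 and no longer passed. Nor did it with RLE scaling (3.56, adjusted p = 0.053), with no filter on low counts (3.48, adjusted p = 0.0752) or with letters fitted as a block (1.12, adjusted p = 0.641, all edgeR).

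Tlr1 and Tlr4 gave 0 reads in all 8 tamoxifen PeMP_TRAP libraries. SN_input held little of either: Tlr1 had 6 reads in letter F, 15 in G and 0 in the other 6 letters, and Tlr4 reached at most 1.29 CPM. Their log2 differences of -5.54 (adjusted p = 0.0176) and -4.98 (adjusted p = 0.0206, both edgeR) come from groups near or at the floor, so no fold is given. The call on Tlr1 was lost without letter G (-3.64, adjusted p = 0.142) and with letters fitted as a block (-4.14, adjusted p = 0.091). That on Tlr4 was lost without letter J (-4.43, adjusted p = 0.0514, all edgeR). The background share of genes called lower, 25.3%, and the share at 0 in all 8 PeMP_TRAP libraries, 8.51%, stand beside these 2. Tlr2 had 8 reads in letter E and none in the other 7 PeMP_TRAP libraries, and its log2 difference of -1.77 did not pass (adjusted p = 0.551). In the first set alone it had the opposite sign (6.74, SE 3.14, adjusted p = 0.188). Without letter E it was -7.28 (adjusted p = 0.00265), and in the second set alone -8.03 (adjusted p = 0.00291), in both cases with every PeMP_TRAP library at 0. Tlr3 was present in E (10.1 CPM), F (62.1) and H (34.6) and at 0 in the other 5. Tlr9 was present in D and H alone, at 1.83 and 1.76 CPM. Myd88 was at 0 in D, J and K and between 7.86 and 78.0 CPM in the others, and its log2 difference of 2.11 did not pass (adjusted p = 0.165, edgeR). Members present in 1 pull-down library and at 0 in the next were thus common, and tamoxifen PeMP_TRAP libraries had 3 to 6 of the 10 members above 3 counts (4 to 6 in the first set), against 7 to 10 in MG_TRAP (9 to 10 in the first set).

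**Figure D3:**
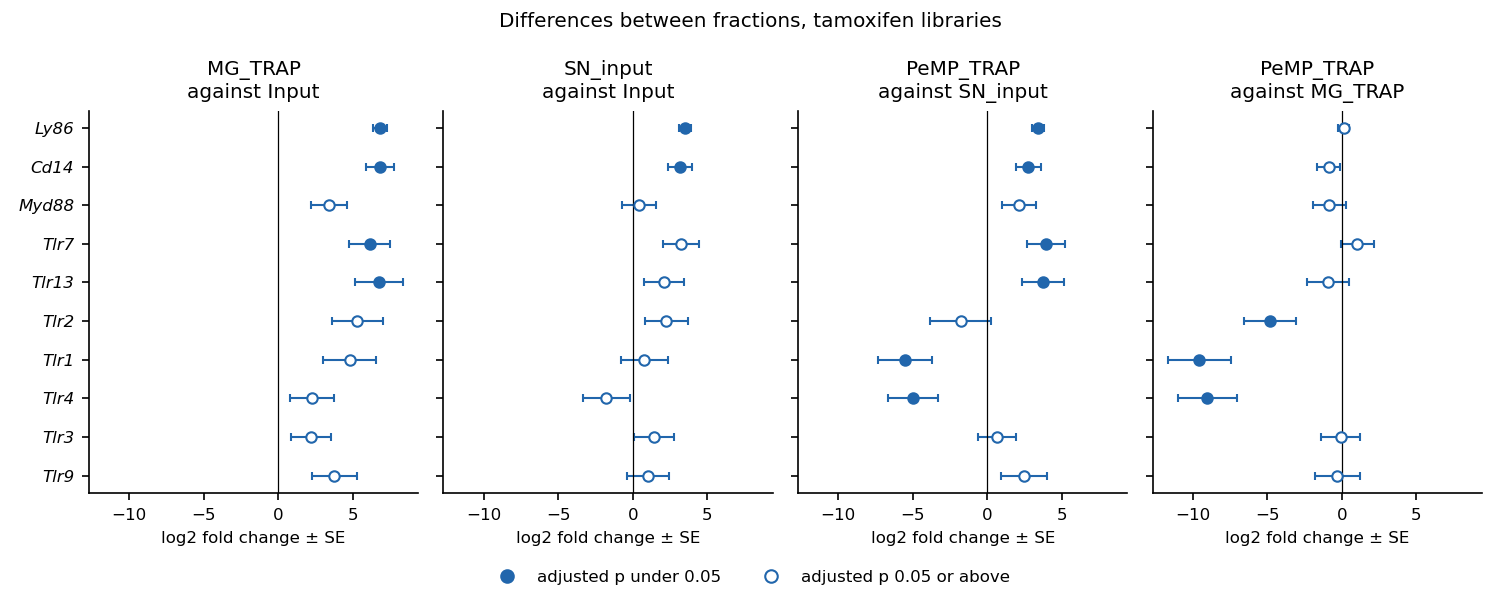
Log2 fold change with its standard error (edgeR, 8 against 8 tamoxifen libraries) of each member in 4 comparisons of fractions; filled points have an adjusted p under 0.05. Ly86 stands at 6.81, 3.51 and 3.42 in the first 3 panels and at 0.11 in PeMP_TRAP against MG_TRAP, where Tlr1, Tlr2 and Tlr4 are the filled points, all below 0.

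Set directly against each other, the pull-downs gave 3 calls among the members, Tlr1, Tlr2 and Tlr4, all lower in PeMP_TRAP. Ly86 differed by 0.11 on the log2 scale (SE 0.37, adjusted p = 0.883, edgeR), and this sign turned with the scaling: it was -0.49 with RLE scaling and with DESeq2 and -0.72 with total counts, none called. By CPM it was higher in PeMP_TRAP in only 1 of 8 letters. Tlr1 was lower in PeMP_TRAP (log2 fold change -9.57, adjusted p = 0.00147), as was Tlr4 (-9.02, adjusted p = 0.00125) and Tlr2 (-4.82, SE 1.77, adjusted p = 0.0411, all edgeR). Because Tlr1 and Tlr4 were at 0 in every PeMP_TRAP library, the fold that the depth allows is smaller. Against the highest floor of a PeMP_TRAP library, mean Tlr1 was at least 3.33-fold lower and mean Tlr4 at least 2.14-fold lower. These limits rest on letters D and F: without D that of Tlr1 was 1.91 and that of Tlr4 0.978, which leaves no bound, and without F, whose PeMP_TRAP library set the floor, they were 8.68 and 7.99. Of the 10 members 3 were called lower and none higher, beside 20.7% of all genes lower and 3.07% higher, so that the count stood near the background, and no member's groups were separated (2.69% of genes were, lower in PeMP_TRAP). In the first set alone none of the 8 members tested passed (Tlr4 and Tlr9 had too few reads there), and in the second set alone 4 did, the fourth being Cd14 (-2.53, SE 0.60, adjusted p = 0.00216). Pooled, Cd14 was lower in 8 of 8 letters and did not pass (-0.88, SE 0.78, adjusted p = 0.479, edgeR). It passed without letter D (-1.78, adjusted p = 0.0374) and by DESeq2 (-1.70, adjusted p = 0.0257). With edgeR, RLE scaling gave -1.70 (adjusted p = 0.091) and total counts -1.91 (adjusted p = 0.061). The call on Tlr2 was lost without any of F, G, H, I, J or K (-5.30 to -4.37). Tlr13, at -0.94 with all libraries (adjusted p = 0.71), was at -4.47 without letter K (adjusted p = 0.0173).

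The enrichment over the matching input was smaller in synaptosomes than in whole homogenate for several members. The difference of the 2 enrichments (PeMP_TRAP over SN_input minus MG_TRAP over Input) was -3.40 for Ly86 (SE 0.54, adjusted p = 0.000208, edgeR). For this gene the term equals 0.11, the difference between pull-downs, less 3.51, the difference between inputs. Cd14 gave -4.04 (SE 1.14, adjusted p = 0.0156). Tlr2 (adjusted p = 0.0405), Tlr4 (adjusted p = 0.0253) and Tlr1 (adjusted p = 0.00739) were also called, but with 7 or 8 PeMP_TRAP libraries at 0 reads and few reads in SN_input their fitted values (-7.09, -7.26 and -10.34) are no measure of size. These 5 of 10 were called lower and none higher, beside 11% of all genes lower and 0.312% higher. None of the 8 members tested passed in the first set alone, where Tlr4 and Tlr9 were not tested, and 5 did in the second. Ly86 kept its call with each letter left out in turn. The other 4 did not: Tlr1 lost it without G (-8.16, adjusted p = 0.0702), Tlr2 and Tlr4 without any of G to K (-6.86 to -5.57 and -7.37 to -6.69), and Cd14 without G, H, I or K (-3.88 to -3.63). With letters fitted as a block, Tlr1 (-8.58, adjusted p = 0.086) and Tlr4 (-8.61, adjusted p = 0.0613, both edgeR) lost it too. Tlr13 gained a call without K (-6.52, adjusted p = 0.0228).

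Scaled to the sum of the 7 microglial markers in the same library, Ly86 had medians between 74.6 and 91.5 in the 4 fractions of tamoxifen mice. Its median was 84.6 CPM per 1000 CPM of markers in Input, 91.5 in MG_TRAP, 89.4 in SN_input and 74.6 in PeMP_TRAP, with a range of 79.9 to 184 in MG_TRAP and 12.3 to 162 in PeMP_TRAP. Cd14 stood at 16.99, 19.2, 11.8 and 4.82 in the same order, with ranges of 9.35 to 23.4 in MG_TRAP and 0.729 to 10.6 in PeMP_TRAP. Tlr7 stood at 4.80, 3.23, 2.61 and 4.50. By median, 7 of the 10 members were highest in Input, all but Ly86, Cd14 and Tlr9. The values in the same order were 38.1, 5.12, 5.43 and 1.96 for Myd88, and 27.4, 1.46, 5.36 and 0 for Tlr3. In homogenate Myd88 and Tlr3 therefore had more reads per microglial marker read than in the microglial pull-down. These ratios are a description, with no test.

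**Figure D4:**
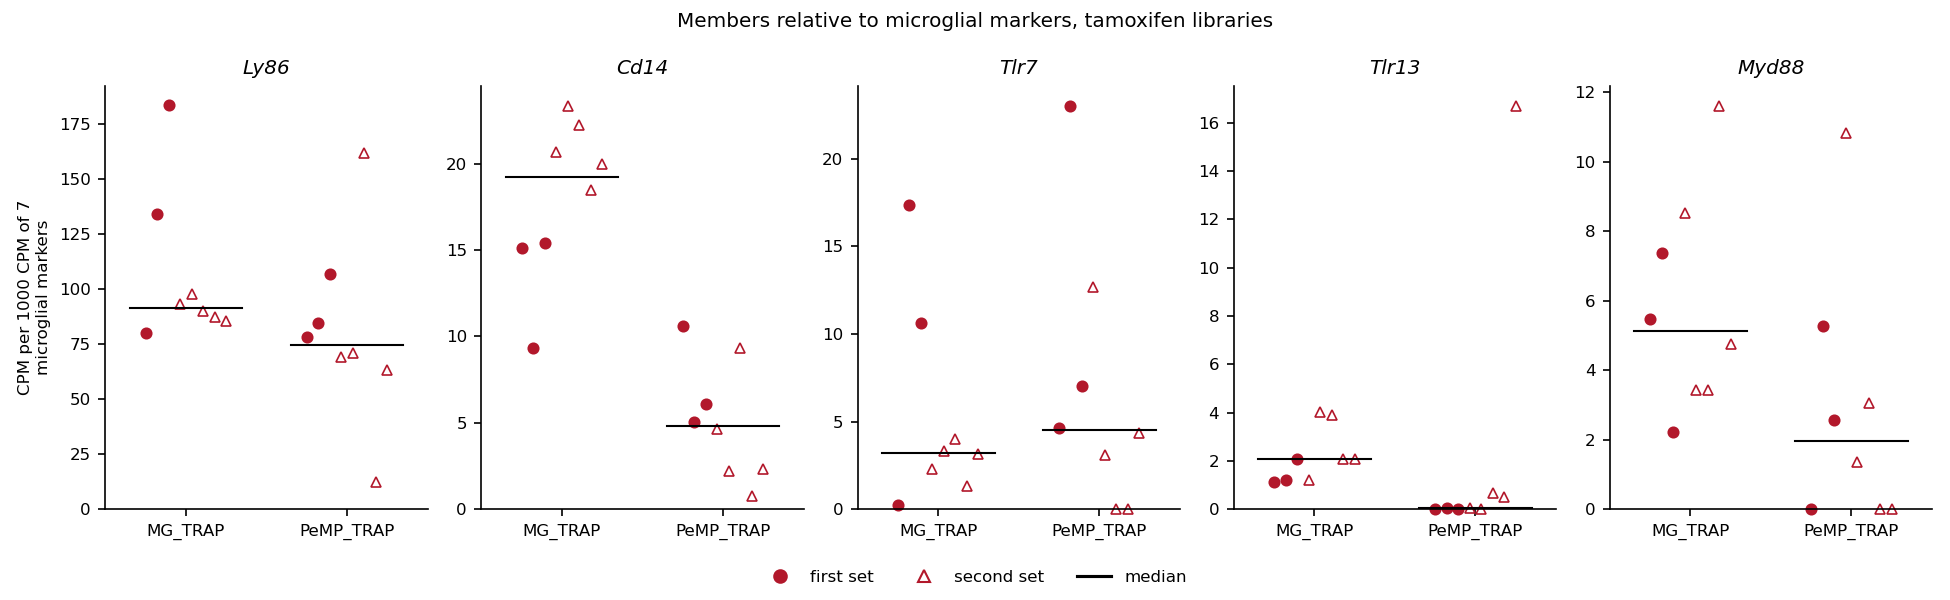
CPM of 5 members per 1000 CPM of the 7 microglial markers in the same library, for MG_TRAP and PeMP_TRAP of tamoxifen mice (8 libraries each; circles first set, triangles second set, bars medians). Cd14 has medians of 19.2 and 4.82, Ly86 of 91.5 and 74.6, and Tlr13 sits at or below 4.04 in MG_TRAP and has 1 PeMP_TRAP library at 16.7.

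The effect of tamoxifen, which the tag needs, was compared within the first set (n = 3 against 3). In MG_TRAP, Ly86 was at 78.0, 155 and 242 CPM in control letters A to C and at 1521, 1363 and 1456 in tamoxifen letters D to F. Cd14 was at 15.7, 0 and 74.8 against 288, 95.1 and 122 CPM. In neither gene did the treatments overlap. Tlr13 was at 0 in all 3 controls and at 21.5, 12.4 and 16.4 CPM with tamoxifen, at least 8.47-fold higher as a mean over the highest control floor. Tlr1 was at 0 in all controls and at 53.9, 3.54 and 34.7 CPM with tamoxifen, at least 15.5-fold higher by the same measure (9.67 without letter D). Both limits rest on the floor of control letter B, without which they were 53.1 for Tlr13 and 97.4 for Tlr1. Tlr7 (4.01, 0 and 0.840 against 4.74, 176 and 84.1 CPM) and Tlr3 (0.0787, 0 and 5.36 against 21.9, 26.5 and 12.8 CPM) were also separated. These are 6 of 10 members with groups that did not overlap, beside 10.3% of 14771 genes in the same direction. Summed marker levels separated in the same way: 976 to 3384 CPM in controls against 7930 to 19032 with tamoxifen for microglia, 0 to 10.9 against 101 to 216 for border macrophages, and 118 to 350 against 582 to 2333 for B and plasma cells. Of the 6 B and plasma cell markers, Cd79a, Ms4a1, Jchain and Igkc were at 0 in all 3 control libraries. Cd79a and Ms4a1 were also at 0 in all 3 tamoxifen libraries. The part of these cell types in the members' differences was not tested.

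No member passed in this comparison by edgeR, in which none of the 14771 genes tested did. At an unadjusted p under 0.05 there were 4 (Tlr1, Tlr7, Tlr13 and Ly86), and DESeq2 called 2, Ly86 (3.92, adjusted p = 0.00463) and Tlr7 (6.42, adjusted p = 0.00501). The edgeR log2 differences were 3.60 for Ly86 (SE 1.08, adjusted p = 0.186), 6.07 for Tlr7 (SE 2.03, adjusted p = 0.231) and 2.86 for Cd14 (SE 1.71, adjusted p = 0.41). Tlr9 had too few reads to be tested in the first set. Tlr7 and Tlr13 lie on chromosome X, and the libraries differed in sex-linked reads. Xist, which females express, far exceeded Y-linked reads in control letter A. Y-linked reads far exceeded Xist in tamoxifen letters D and E, and in 7 of 8 tamoxifen letters over both sets. Letters B, C and F held both. The part of sex in these differences was not tested.

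In PeMP_TRAP, Tlr7 was called higher with tamoxifen. Control letters held 0, 1.77 and 0 CPM and tamoxifen letters 78.3, 193 and 59.4 CPM. The fitted log2 fold change, which rests on controls with at most 2 reads and is no size, was 8.16 (SE 2.35, adjusted p = 0.0247, edgeR), and the call was lost without letter C (7.60, adjusted p = 0.0614), E (7.17, adjusted p = 0.0888) or F (8.53, adjusted p = 0.0518). It was the only member called by edgeR, beside 5.56% of genes called higher. DESeq2 also called Ly86 (2.86, adjusted p = 0.0181) and Tlr3 (7.99, adjusted p = 0.00336), as did edgeR with no filter on low counts (3.26, adjusted p = 0.0346, and 10.49, adjusted p = 0.0432). All 3 controls were at 0 for Tlr3, so its values are no size. Ly86 (4.39, 225 and 228 against 1322, 712 and 902 CPM) and Cd14 (0, 35.4 and 0.246 against 180, 42.2 and 51.3 CPM) were separated as well, which makes 3 of 10, beside 10.3% of all genes in this direction. Ly86 differed by 2.77 (SE 1.04, adjusted p = 0.0703, edgeR) and Cd14 by 3.07 (SE 1.74, adjusted p = 0.216, edgeR). Without letter B, which leaves controls at 0 and 0.246 CPM, the fitted value of Cd14 was 10.01 (adjusted p = 0.0175, edgeR) and is no size. Marker sums separated here too: 221 to 2728 CPM in controls against 8406 to 16906 with tamoxifen for microglia, and in the other direction 2689 to 7300 against 506 to 1501 for neurons, 4024 to 16030 against 574 to 2896 for oligodendrocytes and 496 to 1926 against 77.0 to 301 for astrocytes. Control PeMP_TRAP libraries also held 268 to 1932 CPM of 4 endothelial markers, against 2.81 to 348 in tamoxifen letters D to F, and the part of these in the members' differences was not tested.

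The inputs gave no call between treatments by edgeR in Input or in SN_input, where none of the 14771 genes tested passed and no member reached an unadjusted p under 0.05. DESeq2 called no member in either. Ly86 differed by 1.12 in Input (SE 1.00, adjusted p = 1) and by -0.13 in SN_input (SE 0.98, adjusted p = 1, both edgeR). In SN_input, Myd88 was lower in all 3 tamoxifen letters (0.689, 1.29 and 0.423 CPM) than in the controls (1.70, 1.54 and 10.9 CPM), a separation shared by 19% of all genes.

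Pull-downs from control mice, whose tag had not been induced by tamoxifen, still held microglial RNA. Ly86 ran at 78.0, 155 and 242 CPM in control MG_TRAP, above 1.21, 13.6 and 0.906 CPM in control Input. The summed microglial markers were 976 to 3384 CPM in these pull-downs and 109 to 164 CPM in the inputs. The log2 difference of Ly86 was 4.75 (SE 1.15, adjusted p = 0.2, edgeR). No member passed by edgeR, where 0.0135% of genes did, 3 had an unadjusted p under 0.05, and DESeq2 called Ly86 alone (4.77, adjusted p = 0.000514). With letters fitted as a block, edgeR called Ly86 as well (5.35, adjusted p = 0.028). Ly86 was also the only member with separated groups, as 6.25% of all genes had.

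In control synaptosomes, SN_input held 52.2, 45.1 and 199 CPM of Ly86, above the 3 Input libraries. The log2 difference was 4.39 (SE 1.13, adjusted p = 0.544, edgeR). No gene passed by edgeR, 3 members had an unadjusted p under 0.05, and DESeq2 called Ly86 alone (4.45, adjusted p = 0.0025). With letters fitted as a block, edgeR called Ly86 here too (5.07, adjusted p = 0.0439). Ly86, Cd14, Tlr3 and Tlr7 were separated from Input here, 4 of 10 beside 5.96% of all genes. In control PeMP_TRAP against SN_input none passed by edgeR, with 1 at an unadjusted p under 0.05 and none by DESeq2, and Ly86 differed by 1.29 (SE 0.99, adjusted p = 0.461, edgeR). Tlr3 and Tlr7 were lower in every control PeMP_TRAP library than in any SN_input library, as 19.8% of all genes were.

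Whether tamoxifen changed the enrichments was tested as an interaction. For Ly86 the difference of enrichment, tamoxifen minus control, was 2.49 in whole homogenate (SE 1.41, adjusted p = 0.606, edgeR), from 0.349 without letter B to 3.61 without letter C, and 2.90 in synaptosomes (SE 1.41, adjusted p = 0.242, edgeR). Tlr7 gave 5.82 (SE 3.01, adjusted p = 0.564) and 7.86 (SE 2.77, adjusted p = 0.112), the latter 6.33 to 12.70 with 1 letter left out. No member passed either interaction by edgeR. In whole homogenate 1 had an unadjusted p under 0.05 and DESeq2 called none. In synaptosomes 4 had an unadjusted p under 0.05 and DESeq2 called 1, Tlr7 (7.68, adjusted p = 0.0171). Among all genes 0% passed in whole homogenate, and in synaptosomes 0.914% were called higher and 0.325% lower.

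The remaining parts of the pathway were read from 40 further genes, of which 33 had enough reads to be tested in tamoxifen mice. In MG_TRAP against Input 6 of the 33 were called higher and none lower, beside 4.75% and 1.51% of all genes. Unc93b1, the protein that carries nucleic acid receptors to endosomes, was higher by 6.54 on the log2 scale (SE 0.80). Cd180, the partner of LY86, was higher by 7.22 (SE 1.59) and Tlr6 by 5.40 (SE 1.65), which makes 2 of 3 tested receptors outside the members. Of 5 transcription factors, 3 were higher, led by Irf5 (7.04, SE 1.20) and Nfkb1 (3.64, SE 0.95). None of the 4 other adaptors, 13 tested kinases and ubiquitin ligases or 3 tested negative regulators passed.

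In PeMP_TRAP against SN_input, 9 of the 33 were called higher and 5 lower, beside 6.24% and 25.3% of all genes, so that lower calls were no more common than over all genes. Among cofactors and chaperones Unc93b1 was higher by 3.42 (SE 0.71), and Lbp, a soluble carrier of lipopolysaccharide, was at -11.01 (SE 2.19). In all, 3 of the 5 tested cofactors were higher and 1 lower. The adaptor Tirap, which links TLR2 and TLR4 to MyD88, was higher (4.17, SE 1.61, adjusted p = 0.0437, edgeR). Of the 13 tested kinases and ligases 1 was higher and 3 were lower, led by Tab1 (-5.70, SE 1.30) and Tab3 (-3.79, SE 1.32). Of the 5 transcription factors 3 were higher, Irf5 by 4.77 (SE 1.12), and 1 was lower, Irf7 (-8.22, SE 1.97). The inhibitor Nfkbia was higher by 2.90 (SE 0.93). Unc93b1 and Irf5 were thus called higher in both pull-downs. Against MG_TRAP, 1 of the 33 was higher in PeMP_TRAP (the chaperone Hsp90b1, 1.81, SE 0.34, named after its value was seen) and 8 were lower, beside 3.07% and 20.7% of all genes. In SN_input against Input 2 were higher, beside 2.25%.

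Over all 44 libraries, the log2 CPM of Ly86 was most like that of Tmem119, a microglial membrane protein (Pearson r = 0.95, among 14726 genes outside the members). Cd14 was most like Tnfrsf13b (r = 0.90), Tlr7 like Tmem37 (r = 0.84), Tlr2 like Cysltr1 (r = 0.84) and Tlr13 like Myo1g (r = 0.81). The other 5 members had a nearest gene at r = 0.70 to 0.78. Among the members themselves the closest pair was Cd14 and Ly86 (r = 0.81), followed by Tlr7 and Cd14 (r = 0.78). These libraries share fractions, sets and depth, so the values describe the pattern only.

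The authors' deposited table covers the first set and lists 9 of the 10 members, without Tlr9. For MG_TRAP against Input it gives log2 fold changes of 7.88 for Ly86, 7.35 for Cd14, 9.503 for Tlr7, 8.75 for Tlr13, 8.97 for Tlr2, 9.15 for Tlr1, 3.86 for Myd88, 3.78 for Tlr3 and 1.58 for Tlr4. By likelihood ratio the authors' deposited table has Ly86, Cd14, Tlr7, Tlr13, Tlr2 (adjusted p = 0.00324) and Tlr1 (adjusted p = 0.000924) under 0.05. Myd88, Tlr3 and Tlr4 were not under 0.05 there. Here Tlr1 and Tlr2 did not pass, nor in the first set alone (adjusted p = 0.0578 and 0.156, edgeR). For PeMP_TRAP against SN_input the authors' deposited table gives 5.11 for Tlr7, 4.996 for Cd14, 4.24 for Ly86, 3.49 for Myd88, 3.06 for Tlr2, 0.61 for Tlr3, -0.89 for Tlr13, -3.57 for Tlr1 and -3.95 for Tlr4. Of these only Tlr7, Cd14 and Ly86 had an adjusted p under 0.05 there. For SN_input against Input the authors' deposited table gives 10.62 for Tlr7 and 7.47 for Ly86, both with an adjusted p under 0.05 there (0.0114 and 0.001), beside 5.68 and 3.38 from edgeR over the tamoxifen libraries of the first set here. Which libraries entered that comparison of the authors' deposited table is not given in the sources used here. The other 7 listed members did not pass in it, and lay between -8.30 for Tlr4 and 6.76 for Tlr3.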

How the data were processed

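The authors deposited whole-number read counts per Ensembl gene for 44 libraries. HTSeq 0.9.1, STAR 2.7.0d, Bowtie2 2.3.5, Trimmomatic 0.38 and FastQC 0.11.7 are named in the submitters' processing notes; the genome build, annotation and strand setting are not given in the sources used here. The authors' deposited table for the first set holds log2 fold changes, log2 CPM, a likelihood ratio score and p-values. From it log2 fold changes and some adjusted p-values are quoted, and edgeR is named for it in the submitters' processing notes.

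Counts were kept for the 50714 gene identifiers shared by both sets (0.0232% to 0.795% of assigned reads left out). Lines of unassigned reads, 27.0% to 93.4% of all, stayed out of library sizes and tests. Genes were filtered with filterByExpr (minimum count 10), scaled by TMM and tested with edgeR 4.0.16 (R 4.3.3) by quasi-likelihood, with Benjamini-Hochberg adjustment over all genes tested and a threshold of 0.05. Fractions were compared over the 32 tamoxifen libraries with a term for the set, and treatments over the 24 first-set libraries. Differences between the sets were fitted over the tamoxifen libraries as the interaction of fraction with set. CPM scales counts to the assigned reads of a library. For likeness, log2 CPM took a prior count of 2. The code was tested on simulated data.

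Alternatives were RLE scaling, total counts, no filter, DESeq2 1.42.0, a replicate block, each set alone and leaving out each letter. All 10 members are named; from each pathway list at most the 2 called genes with the largest log2 fold change are named in each comparison of a pull-down with its input. The members were set by symbol and not by a measured value, but earlier results of these data were known when members, lists and tests were chosen. Promoter sequences are from RefSeq. A microglial marker of the planned list is not reported here and was left out of the marker sums and ratios.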

Additional observations from a re-analysis of the deposited data

Results flagged for a closer look

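In groups of 8 tamoxifen libraries, 14 of 40 combinations of member and fraction had a library far from the rest (its gap to the nearest library over 0.526 of the whole range), a limit that chance passes in about 1 in 20 groups of normally distributed values. Many of these groups hold zeros, and the chance rate for them was not measured. In Input these were Tlr3 in letter D (19.1 CPM), Tlr4 in F (34.5), Ly86 in D (18.8) and Myd88 in E (18.7). In MG_TRAP they were Tlr4 in D (41.7 CPM), Tlr7 in E (176) and Tlr9 in J (4.35). In SN_input they were Tlr3 in F (19.5 CPM), Tlr4 in E (1.29) and Tlr9 in G (0.680). In PeMP_TRAP they were Tlr2 in E (3.22 CPM, 8 reads), Tlr7 in E (193), Tlr13 in K (159) and Cd14 in D (180).

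The enrichment over input differed between synaptosomes and whole homogenate (edgeR interaction, log2) for Tlr1 (-10.34), Tlr2 (-7.09), Tlr4 (-7.26), Cd14 (-4.04) and Ly86 (-3.40). The values of Tlr1, Tlr2 and Tlr4 rest on groups at or near 0 reads and are no size. Between the second and the first set, the enrichment in synaptosomes differed for Tlr2 (-15.59) and Cd14 (-4.89), both of which lost the call without letter E.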

How the results depend on the processing

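Of 2042 values for members under an alternative, 1826 kept their direction and side of the threshold. Another 117 changed direction with no call before or after, 65 lost a call and 31 gained one. In 3 the direction reversed with a call before or after. Tlr13 in PeMP_TRAP against SN_input was 3.73 with all libraries, -0.43 in the first set alone and -0.075 without letter K (-0.075 to 4.24 over the letters left out). The set difference of Tlr3 there was 0.52 with all libraries and -9.57 without letter H (-9.57 to 1.10). Other causes of change were not tested. In MG_TRAP against Input, 4 members were higher (first set alone 3, second set alone 2, no filter 5, DESeq2 6; leaving out letters 4 to 5). In PeMP_TRAP against SN_input 4 were higher (each set alone 2, RLE scaling, no filter and replicate block 3; 2 to 4) and 2 lower (replicate block 1, first set alone 0, second set alone 3; 1 to 3). In PeMP_TRAP against MG_TRAP 3 were lower (first set alone 0, DESeq2 4; 2 to 4). In SN_input against Input 2 were higher (RLE scaling 1, total counts 1, no filter 1, first set alone 0; 1 to 2). For the difference of enrichments 5 were lower (replicate block 3, first set alone 0; 1 to 5). Tamoxifen against control gave 0 in MG_TRAP (DESeq2 2) and 1 in PeMP_TRAP (no filter 3, DESeq2 3; 0 to 2), and 0 for the difference in synaptosome enrichment (no filter 1, DESeq2 1; 0 to 1). In control mice, MG_TRAP against Input and SN_input against Input each gave 0 (DESeq2 1, replicate block 1, which was Ly86 at 5.35, adjusted p = 0.028, and 5.07, adjusted p = 0.0439). Between sets, PeMP_TRAP against SN_input had 2 lower (RLE scaling 1, no filter 1; 0 to 4) and PeMP_TRAP against MG_TRAP 0 higher (DESeq2 1) and 0 lower (0 to 2). Whether letters pair the libraries is not given in the sources used here, and for that reason the main fits did not treat them as pairs. Same-letter libraries correlated in their deviations at -0.043 to 0.227. A tamoxifen library correlated best with its own letter in 6 of 8 letters for Input and MG_TRAP (controls 2 of 3). The count was 5 of 8 for MG_TRAP and PeMP_TRAP (2 of 3) and for Input and PeMP_TRAP (1 of 3). It was 4 of 8 for Input and SN_input (1 of 3), 3 of 8 for MG_TRAP and SN_input (2 of 3) and 2 of 8 for SN_input and PeMP_TRAP (3 of 3). Each match was picked among the 3 or 5 libraries of 1 set and treatment, and the rate by chance was not measured. With the replicate block, PeMP_TRAP against SN_input gave no call for Tlr13 (1.12, adjusted p = 0.641) or Tlr1 (-4.14, adjusted p = 0.091), and the difference of enrichments none for Tlr1 (-8.58, adjusted p = 0.086) or Tlr4 (-8.61, adjusted p = 0.0613). RLE scaling moved the median of all genes from -0.11 to -0.65 in MG_TRAP against Input, from 0.02 to -0.70 in SN_input against Input and from -0.52 to -1.07 in PeMP_TRAP against MG_TRAP. Depth sets the floor of 3 counts, and what else sets the zeros of PeMP_TRAP was not tested.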
